A study of Mus musculus with 9 samples.

Results

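The 8 genes described here encode the constant regions of the antibody heavy chains of the mouse, which set the class, or isotype, of an antibody. They are Ighm (IgM), Ighd (IgD), Ighg3, Ighg1, Ighg2b and Ighg2c (the IgG subclasses), Ighe (IgE) and Igha (IgA). They were chosen by gene symbol from a deposited table of 57010 Ensembl identifiers, in which all 8 were found. RNA was measured in lung tissue from 9 mice of the inbred strain C57BL/6J, each library from a different mouse, with 3 mice in each of 3 groups. Control mice received 100 µl of sterile saline. Mice of the CuO group were given copper oxide nanoparticles once, at 2 mg/mL in 100 µl, through the trachea. The CuO_TTM group had the same particles and also TTM, an agent the labels do not spell out, at 0.02 mg/mL in the drinking water. No allele or transgene is named for any group, no group received TTM without particles, and all lungs were taken on day 7. Values are TPM, a relative abundance of transcripts whose calculation divides by transcript length and gives all libraries an equal sum. Levels can therefore be compared between genes, and the sequencing depth is unknown.

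B cells assemble a variable segment of the heavy chain and first join it to the constant exons of Ighm. Naive B cells carry IgM and IgD together by alternative splicing of the same primary transcript. After activation, the DNA in front of the constant genes can be cut and rejoined, so that the cell replaces Ighm by a downstream gene and switches to IgG, IgE or IgA. Antibody-secreting cells then make very large amounts of the chosen heavy chain RNA, so that this RNA in a tissue can come mostly from few cells. In the airways IgA is the main antibody carried to the mucosal surface, linked into polymers by the joining chain Jchain and moved across the epithelium by the receptor Pigr.

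The constant genes lie on chromosome 12 on the minus strand, and in GENCODE M21 on the build GRCm38 they stand in the order Ighm, Ighd, Ighg3, Ighg1, Ighg2b, Ighg2c, Ighe and Igha, from 113422730 down to 113254830. The table itself was made on GRCm39, per the submitters' processing notes, so these positions serve for the reference sequences only. The hinge exons of the 4 gamma genes, the short exons that join the arms of IgG to its stem, are shown because the hinge is known to differ between the subclasses. They lie at chr12:113360529-113360576 (Ighg3), chr12:113329844-113329882 (Ighg1), chr12:113307261-113307326 (Ighg2b) and chr12:113288263-113288325 (Ighg2c), and are written on the transcribed minus strand. Capitals mark bases that belong to a stretch of at least 12 bases found in a transcript of another of the 8 genes.
Ighg3: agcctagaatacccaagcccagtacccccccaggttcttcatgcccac
Ighg1: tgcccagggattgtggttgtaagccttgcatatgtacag
Ighg2b: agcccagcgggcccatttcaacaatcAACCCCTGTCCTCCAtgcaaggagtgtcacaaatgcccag
Ighg2c: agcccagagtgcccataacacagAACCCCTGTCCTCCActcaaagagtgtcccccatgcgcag

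The hinge exons of Ighg3 and Ighg1 held no such stretch, and those of Ighg2b and Ighg2c shared 15 bases. Their first exons, each of 291 bases, were more alike, with 87.6% identical bases between Ighg2b and Ighg2c and 78.4% between Ighg2c and Ighg3. Each gene has 2 annotated transcripts, and the one numbered first was used here. Between these transcripts of Ighg2b and Ighg2c the longest common run was 78 bases. No window of 100 bases of such a transcript occurred in any transcript of another of the 8 genes. The remaining transcripts were not compared with each other. How many reads matched several of the 4 gamma genes was not tested. Their values are uncertain to the extent that such reads were divided. The first 60 bases of the first constant exon of Ighm (chr12:113422671-113422730) and of Igha (chr12:113260177-113260236), the exon to which the variable segment is spliced, are shown for the 2 genes that were highest in one or another library, and neither held such a shared stretch.
Ighm: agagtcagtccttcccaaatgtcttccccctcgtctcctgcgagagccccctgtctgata
Igha: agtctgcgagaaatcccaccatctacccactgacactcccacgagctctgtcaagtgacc

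Of the 8 genes, 7 passed the abundance filter of at least 1 TPM in at least 3 libraries and entered the tests among 15487 genes, and Ighe did not. Differences are on the scale of log2(TPM + 1), which understates the change of low genes, and adjusted p-values are from limma over all 15487 genes. In bulk lung RNA, more cells of a type and more RNA per cell cannot be told apart. The libraries themselves differed. The club cell secretory gene Scgb1a1 took 17.3% to 22.5% of all TPM in control and 6.90% to 12.3% in CuO, against 8.17%, 0.180% and 0.353% in CuO_TTM replicates 1, 2 and 3. Across genes, no library correlated with CuO replicate 1 above 0.901, where each of the other libraries reached at least 0.940 with another. These correlations are across genes and only describe the libraries. The defining genes of the alveolar epithelium were abundant in every library but not level. Their sum was lowest in CuO_TTM replicate 1, at 23841 TPM, against 36957 to 88077 TPM in the other libraries. The median gene differed by 0.03 between CuO and control, by 0.19 between CuO_TTM and CuO and by 0.24 between CuO_TTM and control. Within CuO the libraries were not level. The median deviation of genes from their mean over the 9 libraries was -0.525, 0.154 and 0.198 in replicates 1, 2 and 3.

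**Figure D1:**
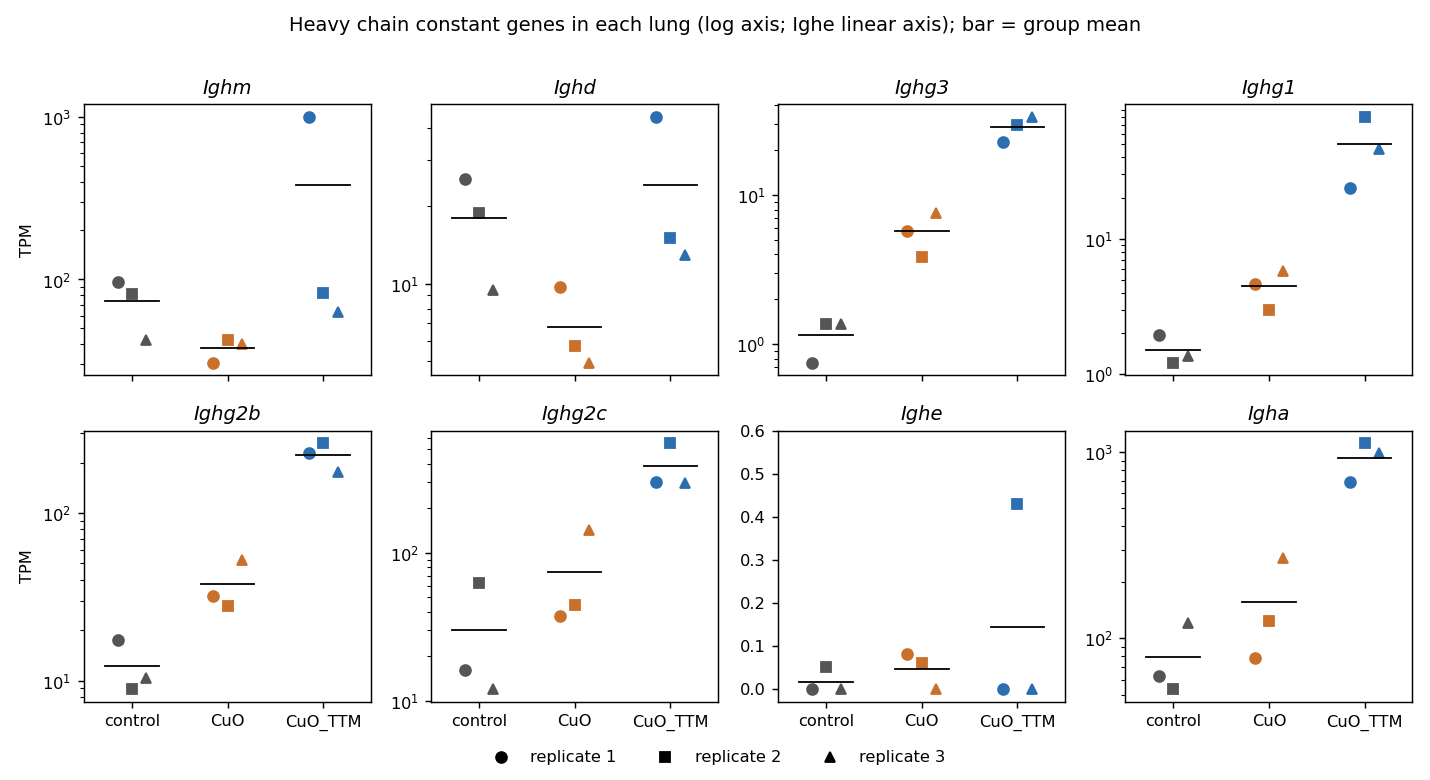
TPM of each heavy chain constant gene in each of the 9 lungs, on a log axis except for Ighe, with the symbol giving the replicate and the bar the group mean. Igha and the 4 gamma genes are higher in all 3 CuO_TTM lungs than in any other lung, whereas Ighm stands at 1001 TPM in CuO_TTM replicate 1 and at 62.8 and 82.1 TPM in the other two.

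Heavy chain RNA was several times as abundant in lungs given particles and TTM as in the other lungs. Summed over the 8 genes, it measured 222, 227 and 198 TPM in control replicates 1, 2 and 3, 198, 252 and 523 TPM in CuO, and 2315, 2134 and 1616 TPM in CuO_TTM. All CuO_TTM lungs thus lay above all others, and CuO overlapped with control. IgA and the IgG subclasses made up the larger part of this sum in every library other than control replicate 1, where the 6 class-switched genes took 44.9%. The IgM and IgD genes did not follow the same pattern as the switched genes, as described next.

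Igha (ENSMUSG00000095079) was the most abundant heavy chain gene in 6 of the 9 lungs. It measured 63.1, 53.3 and 121 TPM in control, 78.1, 124 and 270.0 TPM in CuO, and 692, 1117 and 988 TPM in CuO_TTM. The CuO_TTM lungs did not overlap with either other group, and CuO overlapped with control. Igha rose by 2.72 in CuO_TTM against CuO (SE 0.47, limma adjusted p = 0.0368) and by 3.61 against control (adjusted p = 0.0182). The difference of CuO from control was 0.89 (adjusted p = 0.698). The call against CuO was lost when any 1 of 7 libraries was left out, those other than CuO replicate 3 and CuO_TTM replicate 1, with log2 differences from 2.31 to 2.72 in those fits. The call against control was lost without control replicate 1 or 2 or CuO_TTM replicate 2 or 3 (adjusted p = 0.103, 0.0969, 0.108 and 0.0562).

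Among the gamma genes, Ighg2c (ENSMUSG00000076612) was the highest on average in each group. Ighg2c encodes the IgG2 form of C57BL/6 mice, whose production is favoured by interferon gamma. It measured 16.1, 62.3 and 11.9 TPM in control, 37.2, 44.4 and 142 TPM in CuO, and 302, 550 and 297 TPM in CuO_TTM. Control replicate 2 lay above 2 of the 3 CuO lungs, so these groups overlapped, while every CuO_TTM lung exceeded both. It rose against control by 3.93 (SE 0.66, limma adjusted p = 0.0254) and was not called against CuO, at 2.55 (adjusted p = 0.180). The call against control was lost without any 1 control lung or without CuO_TTM replicate 2 or 3, with limma adjusted p from 0.0706 to 0.148.

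Ighg2b (ENSMUSG00000076613), the gene of IgG2b, measured 17.5, 8.86 and 10.3 TPM in control, 32.02, 27.8 and 52.8 TPM in CuO, and 229, 261 and 176 TPM in CuO_TTM. The 3 groups stood in steps with no overlap. Ighg2b rose by 2.57 in CuO_TTM against CuO (SE 0.33, limma adjusted p = 0.0156) and by 4.11 against control (adjusted p = 0.00191). CuO against control differed by 1.54 and was not called (adjusted p = 0.194).

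Ighg1 (ENSMUSG00000076614), whose switching is favoured by interleukin 4 in the mouse, was a minor gene in every lung. It measured 1.96, 1.21 and 1.36 TPM in control, 4.6, 2.98 and 5.83 TPM in CuO, and 23.8, 79.9 and 46.5 TPM in CuO_TTM. The groups again stood in steps without overlap. Ighg1 rose by 3.10 in CuO_TTM against CuO (SE 0.41, limma adjusted p = 0.0171) and by 4.20 against control (adjusted p = 0.00675), and CuO differed from control by 1.10 (adjusted p = 0.540). The first call was lost without CuO_TTM replicate 2 (adjusted p = 0.0802) and the other without control replicate 2 (adjusted p = 0.0704).

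Ighg3 (ENSMUSG00000076615), the subclass known in mice for responses to carbohydrate antigens, was the gene of smallest p of all 15487 in CuO_TTM against control. It measured 0.75, 1.36 and 1.36 TPM in control, 5.78, 3.82 and 7.59 TPM in CuO, and 22.9, 29.6 and 33.5 TPM in CuO_TTM, again with no overlap between groups. Ighg3 rose by 3.78 in CuO_TTM against control (SE 0.29, limma adjusted p = 0.00191) and by 2.16 against CuO (adjusted p = 0.0171), where the call was lost without CuO_TTM replicate 2 or 3 (adjusted p = 0.0998 and 0.0575). In CuO against control the difference was 1.62 with a 95% interval of 0.97 to 2.26, and it ranked 30 of 15487 by p without being called (adjusted p = 0.136).

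Ighm (ENSMUSG00000076617) differed between the lungs of a single group by more than any other heavy chain gene above the filter. It measured 96.7, 81.0 and 42.4 TPM in control, 30.7, 42.7 and 39.8 TPM in CuO, and 1001, 82.1 and 62.8 TPM in CuO_TTM. CuO_TTM replicate 1 alone stood apart, and replicates 2 and 3 lay within the range of control and above CuO. The difference of CuO_TTM from CuO was 2.19 (SE 0.88, limma adjusted p = 0.536) and 0.92 without CuO_TTM replicate 1, and neither was called. Against control it was 1.31 with all libraries and 0.051 without that lung, and CuO against control was -0.87 (adjusted p = 0.960).

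Ighd (ENSMUSG00000104213) measured 25.5, 18.7 and 9.47 TPM in control, 9.72, 5.74 and 4.92 TPM in CuO, and 44.3, 15.0 and 12.9 TPM in CuO_TTM. It was highest in CuO_TTM replicate 1. The other CuO_TTM lungs lay within the control range, and CuO met control at control replicate 3. No comparison called it, with differences of -1.23 for CuO against control, 1.52 for CuO_TTM against CuO and 0.30 for CuO_TTM against control (limma adjusted p = 0.587, 0.353 and 0.814). The last of these turned to -0.24 without CuO_TTM replicate 1, to -0.080 without control replicate 3 and to -0.044 with quantile normalization.

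Ighe (ENSMUSG00000087642), the heavy chain of the antibody class bound by mast cells, was listed at 0 TPM in 5 of the 9 lungs. It stood at 0.05 TPM in control replicate 2, at 0.08 and 0.06 TPM in CuO replicates 1 and 2, and at 0.43 TPM in CuO_TTM replicate 2. The highest Ighe value thus came from the lung with the highest Ighg1, Ighg2b, Ighg2c and Igha values. At an unknown depth, these values do not tell whether IgE transcripts were absent.

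**Figure D2:**
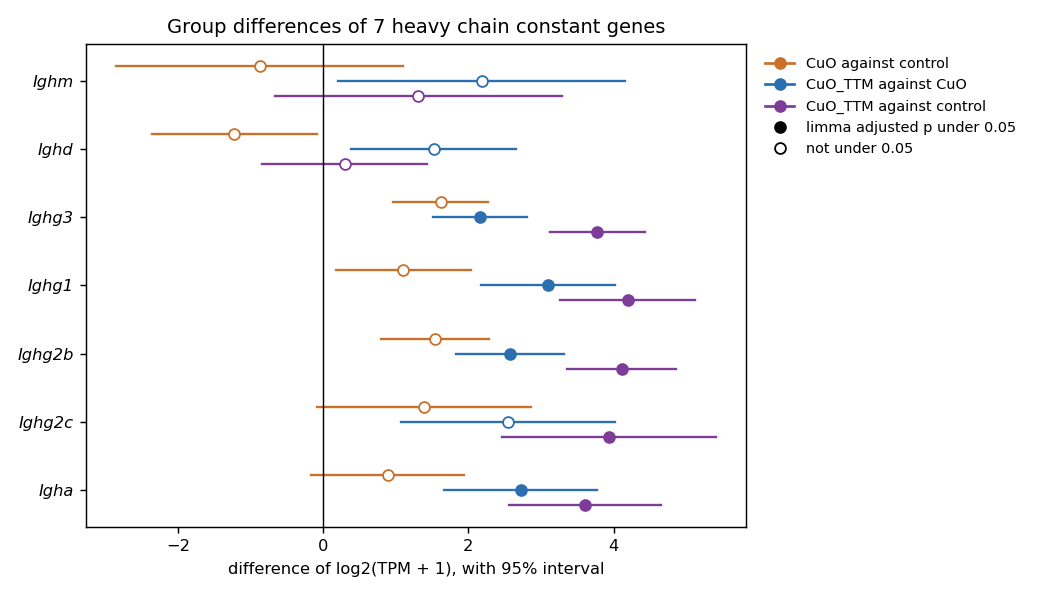
Difference of log2(TPM + 1) with its 95% interval for the 7 tested heavy chain constant genes in the 3 comparisons, with filled points where the limma adjusted p was under 0.05. Filled points are found for Ighg3, Ighg1, Ighg2b and Igha in CuO_TTM against CuO and for these and Ighg2c in CuO_TTM against control, and nowhere for Ighm or Ighd.

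Setting CuO_TTM beside CuO addresses what differed when TTM was given with the particles. Of the 7 tested genes 4 were called higher (Igha, Ighg1, Ighg2b and Ighg3) and none lower, where 0.691% of all tested genes were called higher, 0.0194% lower and 0.71% in either direction. All 7 had groups that did not overlap, each higher in CuO_TTM, against 9.78% of all tested genes that were higher without overlap and 2% that were lower. All 7 had an unadjusted limma p under 0.05, as did 7.75% of all genes, and their median difference was 2.55 against 0.19 over all genes. The count of 4 fell to 0 without CuO_TTM replicate 2 and to 2 without replicate 3, and to 0 when the 2 groups were fitted alone. The differences of the 4 genes were 2.13 to 2.68 without CuO_TTM replicate 2, with adjusted p from 0.0802 to 0.179.

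In CuO_TTM against control, 5 of the 7 genes were called higher, the 4 gamma genes and Igha, and none lower, where 1.79% of all tested genes were called higher, 0.11% lower and 1.9% in either direction. The same 5 had groups that did not overlap, against 31% of all tested genes that were higher without overlap and 5.73% that were lower. The same 5 had an unadjusted p under 0.05, as did 18% of all genes, and the median of the 7 was 3.78 against 0.24 over all genes. This comparison shares the CuO_TTM lungs with the previous one. The count fell to 2 without control replicate 2 and to 3 without control replicate 1, CuO_TTM replicate 2 or CuO_TTM replicate 3. With CuO_TTM replicates 2 and 3 left out together it was 0, in a fit that assumes that the remaining lung varies like the others.

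In CuO against control, limma called 0 of the 7 genes, and 0 of all 15487 (0%), and 4 of the 7 had an unadjusted p under 0.05 (Ighd, Ighg1, Ighg2b and Ighg3), against 7.95% of all genes. The values of Ighg1, Ighg2b and Ighg3 were higher in each CuO lung than in any control lung, which held for 9.37% of all tested genes. None was lower in each, as 3.53% of all genes were. The median difference of the 7 was 1.10 against 0.03 over all genes. Both members expressed by naive B cells had negative differences and the 5 switched genes positive ones, none of them called.

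**Figure D3:**
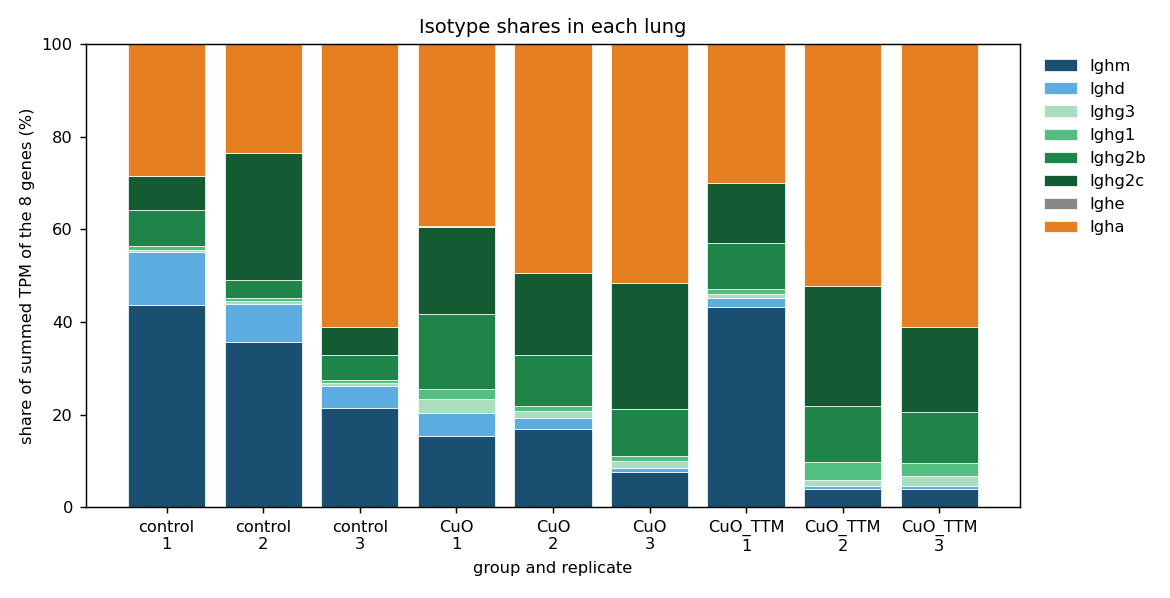
Share of each gene in the summed TPM of the 8 heavy chain constant genes in each lung, stacked in the order of the locus. The IgM share (dark blue) is 7.62% to 16.9% in CuO and 21.4% to 43.6% in control, and in CuO_TTM it is 43.2% in replicate 1 and 3.85% and 3.89% in replicates 2 and 3.

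The mixture of isotypes was described by the share of each gene in the summed TPM, with no test, since a score over chosen genes was not tested. The class-switched genes together took 44.9%, 56.0% and 73.8% in control, 79.6%, 80.8% and 91.4% in CuO, and 54.8%, 95.4% and 95.3% in CuO_TTM. The share was higher in every CuO lung than in any control lung. CuO_TTM replicate 1 lay within the control range, and replicates 2 and 3 lay above all other lungs. Ighm took 43.6%, 35.7% and 21.4% in control and 15.5%, 16.9% and 7.62% in CuO.

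Among the class-switched genes alone, the proportions overlapped between the groups for most isotypes. Igha took 41.9% to 82.9% of them in control, 49.5% to 61.1% in CuO and 54.5% to 64.1% in CuO_TTM. The exception was Ighg3, with 0.754% to 1.07% in control, 1.59% to 3.66% in CuO and 1.45% to 2.17% in CuO_TTM, so that both exposed groups lay above control. The ratio of Ighg2c to Ighg1 was 8.20, 51.5 and 8.77 in control, 8.09, 14.9 and 24.3 in CuO, and 12.7, 6.88 and 6.38 in CuO_TTM. Ighg2c exceeded Ighg1 in all 9 lungs, and the groups overlapped.

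The order of the mean levels was Igha, Ighm, Ighg2c, Ighd, Ighg2b, Ighg1, Ighg3 and Ighe in control. Neighbours in this order overlapped in range, apart from Ighg2b over Ighg1 and Ighg3 over Ighe. In CuO the order was Igha, Ighg2c, Ighm, Ighg2b, Ighd, Ighg3, Ighg1 and Ighe, where Ighg2b over Ighd and Ighg1 over Ighe did not overlap. In CuO_TTM it was Igha, Ighg2c, Ighm, Ighg2b, Ighg1, Ighg3, Ighd and Ighe. There Igha over Ighg2c, Ighg2b over Ighg1 and Ighd over Ighe did not overlap. CuO_TTM replicates 2 and 3 had the same order of all 8 genes.

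The 7 tested genes were compared by the shape of their values over the 9 lungs. Likeness was measured as the root mean square difference of log2(TPM + 1), each gene centred on its own mean over the 9 lungs. Ighm and Ighd differed by 0.80, and the 5 switched genes differed among themselves by 0.46 (Ighg2b and Ighg3) to 0.88 (Igha and Ighg2c). Between an unswitched and a switched gene the difference was 1.63 to 1.88.

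The genes nearest in shape to Ighd among 14971 others, with antibody and T cell receptor segments left out, were H2-Ob (0.23), an MHC class II gene of B cells, and Cd79b (0.24), a signalling chain of the B cell receptor. Nearest to Ighm was Cd79a (0.57), the partner chain of Cd79b, followed by Fabp4 (0.64), a fatty acid binding protein gene. Jchain was the nearest gene to Igha (0.38), to Ighg2b (0.74), to Ighg1 (0.76) and to Ighg2c (0.84). Ighg3 was nearest to S100a4 (0.74), a calcium-binding protein gene, and to Thy1 (0.75), a T cell surface gene. The second nearest were Cxcr6 for Ighg1 (0.77), Cd300ld5 for Ighg2b (0.80) and Asf1b for Ighg2c (0.89).

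**Figure D4:**
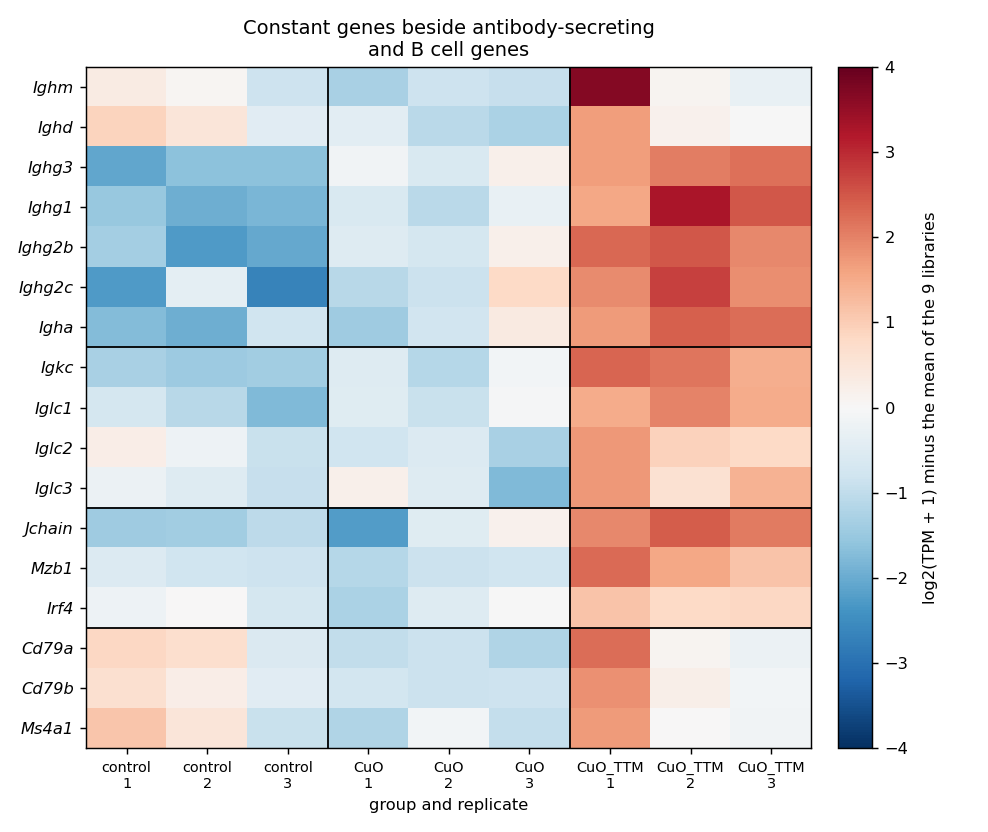
log2(TPM + 1) of each gene minus its mean over the 9 lungs, for the tested heavy chain constant genes, the light chain constant genes, genes of antibody-secreting cells and B cell genes (from top to bottom, separated by lines). The switched genes, Igkc and Jchain are high in all 3 CuO_TTM lungs, and Ighm and Ighd share with the 3 B cell genes drawn (Cd79a, Cd79b and Ms4a1) a maximum in CuO_TTM replicate 1. Of the B cell genes not drawn, Fcer2a is highest in CuO_TTM replicate 3 and Ebf1 in control replicate 1. The rest are highest in CuO_TTM replicate 1. The genes of antibody-secreting cells drawn are Jchain, Mzb1 and Irf4. Of those not drawn, Tnfrsf17, Tnfrsf13b and Pou2af1 are also higher in all 3 CuO_TTM lungs than in any other lung. The remaining ones, among them Xbp1, Prdm1 and Sdc1, overlap with at least 1 other group.

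Light chains pair with every heavy chain isotype. Igkc (ENSMUSG00000076609), the kappa constant gene, measured 364, 327 and 343 TPM in control, 638, 408 and 842 TPM in CuO, and 4522, 3988 and 2472 TPM in CuO_TTM. It rose by 2.55 in CuO_TTM against CuO (limma adjusted p = 0.0156) and by 3.36 against control (adjusted p = 0.00666). These Igkc calls were lost without CuO_TTM replicate 2 (adjusted p = 0.0947) and without control replicate 2 (adjusted p = 0.0704). The lambda gene Iglc1 rose by 2.13 and 2.84 in the same comparisons (limma adjusted p = 0.0258 and 0.0140). Its call against CuO was lost at least without control replicate 2, CuO replicate 1 or 2, or CuO_TTM replicate 2 or 3. Its call against control was lost at least without control replicate 2 or CuO_TTM replicate 2 or 3. Iglc2 and Iglc3 were not called, at 2.03 and 1.93 against CuO (adjusted p = 0.0507 and 0.174). Summed heavy chain constant TPM divided by summed light chain constant TPM was 0.508 to 0.596 in control, 0.485 to 0.610 in CuO_TTM, and 0.285, 0.552 and 0.592 in CuO replicates 1, 2 and 3, so heavy and light chains kept a similar ratio in 8 of the 9 lungs.

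The variable segments, which lie at the other end of the same transcripts, gave a second readout. Summed over 113 annotated Ighv genes, they measured 406, 456 and 276 TPM in control, 37.5, 611 and 1282 TPM in CuO, and 3162, 3825 and 4140 TPM in CuO_TTM. Every CuO_TTM lung again lay above all others. The ratio of Ighv to heavy chain constant TPM was 0.189 in CuO replicate 1 and 1.37 to 2.56 in the other 8 lungs, and the ratio of light chain variable to light chain constant TPM was 0.367 against 1.57 to 3.18. Of the Ighv genes 27 were above 0 TPM in CuO replicate 1, against 64 to 94 in the others. Without CuO replicate 1, the log2 differences of Ighg1, Ighg2b and Ighg3 for CuO against control were 1.07, 1.63 and 1.59, and none was called (limma adjusted p = 0.259, 0.0912 and 0.0717).

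Of 16 genes of antibody-secreting cells tested, 2 were called higher in CuO_TTM against CuO, Jchain and Mzb1, and none lower, with a median of 0.77. The count was 0 without CuO_TTM replicate 2 and 1 without any 1 control lung, CuO replicate 2 or CuO_TTM replicate 1 or 3. Jchain measured 27.0, 27.8 and 35.5 TPM in control, 15.2, 53.0 and 83.9 TPM in CuO, and 284, 401 and 315 TPM in CuO_TTM, a rise of 2.98 over CuO (limma adjusted p = 0.0369). This call was lost when any 1 of 7 libraries was left out, those other than CuO replicates 1 and 3, with adjusted p from 0.0561 to 0.179. Mzb1, a chaperone of antibody assembly, measured 9.26, 7.63 and 7.40 TPM in control, 5.72, 7.12 and 7.61 TPM in CuO, and 70.9, 42.2 and 31.5 TPM in CuO_TTM, a rise of 2.58 (adjusted p = 0.0156). The B cell coactivator gene Pou2af1 was not called, at 2.16 (adjusted p = 0.0566). Xbp1, Prdm1 and Sdc1, named after their values were seen, overlapped between control and CuO_TTM. Xbp1 measured 135 to 198 TPM in control and 161 to 188 TPM in CuO_TTM. Prdm1 measured 3.87 to 6.39 TPM and 6.23 to 8.21 TPM, and Sdc1 68.4 to 87.0 TPM and 79.1 to 165 TPM. Igha divided by Jchain was 1.92 to 3.41 in control, 2.44 to 3.14 in CuO_TTM, and 5.15, 2.35 and 3.22 in CuO.

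Genes of B cells, which carry IgM and IgD on their surface, were highest in sum in CuO_TTM replicate 1, as were Ighm and Ighd. None of 15 was called in any comparison by limma, and 0, 6 and 2 had an unadjusted p under 0.05 in CuO against control, CuO_TTM against CuO and CuO_TTM against control. Of all tested genes, 7.95%, 7.75% and 18% had such a p. The medians below refer to the 15 genes. Their medians were -0.75, 1.19 and 0.39. Summed over the list, B cell genes measured 112 to 208 TPM in control, 69.3 to 222 TPM in CuO, and 658, 200 and 178 TPM in CuO_TTM replicates 1, 2 and 3, and none of the 15 was at 0 in any lung. Cd79b, the B cell gene of smallest p, measured 33.2, 25.6 and 15.1 TPM in control, 12.2, 11.3 and 11.5 TPM in CuO, and 77.3, 25.0 and 19.4 TPM in CuO_TTM. The others named by the same rule were Bank1, a B cell scaffold gene, and Fcer2a, the low-affinity IgE receptor gene, with differences of 1.42 and 0.99 against CuO (adjusted p = 0.414 and 0.751).

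IgM and IgD differed from each other in CuO_TTM replicate 1. The ratio of Ighm to Ighd was 22.6 in that lung and 3.15 to 8.09 in the other 8, and the ratio of Ighm to Cd79a was 12.1 against 2.99 to 5.99. The B cell genes and the summed switched genes did not rank the lungs alike, since the switched genes measured 1270 TPM in this lung and 2037 and 1540 TPM in CuO_TTM replicates 2 and 3. T cell genes were also high in all 3 CuO_TTM lungs, at 738 to 1300 TPM in sum, against 98.3 to 257 TPM in CuO and 161 to 219 TPM in control. Of 14 tested, 11 were called higher in CuO_TTM against CuO, among them Cd8b1, Cd8a and Cd3e, chains of the CD8 coreceptor and of the T cell receptor complex, at 3.92, 3.65 and 2.89 (limma adjusted p = 0.0156 for each). The count of 11 was 0 without CuO_TTM replicate 2, 4 or 5 without any 1 control lung, CuO replicate 1 or 3 or CuO_TTM replicate 1, and 8 or 12 without the remaining lungs. The part of these cell type levels in the isotype differences was not tested.

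Class switching draws on general DNA repair enzymes. Of 22 switching and DNA end-joining genes, 1 was called, Exo1, an exonuclease that acts in switching, which rose by 1.37 in CuO_TTM against control (limma adjusted p = 0.0273), from 1.08, 0.61 and 1.19 TPM to 3.37, 4.01 and 4.74 TPM. The count of 1 was 0 without any 1 control lung or CuO_TTM replicate 2 or 3, and 4 without CuO replicate 1. The uracil glycosylase gene Ung, which acts in the DNA cutting of class switching, differed by 1.08 in that comparison (adjusted p = 0.0527) and by 0.81 in CuO against control (adjusted p = 0.331). Xrcc6, which encodes a subunit of the end-binding Ku complex, differed by 0.78 and 0.61 (adjusted p = 0.117 and 0.520). Median differences of this list were 0.14, 0.25 and 0.35 in the 3 comparisons in the order given above for B cells, against 0.03, 0.19 and 0.24 over all genes.

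None of 6 tested germinal centre genes was called by limma, and 1, 1 and 2 had an unadjusted p under 0.05 in the same order. The shares of all tested genes were 7.95%, 7.75% and 18%. The genes of smallest p were Basp1, S1pr2, a receptor that holds B cells in the germinal centre, and Bcl6, the repressor that directs the reaction, with differences of 1.75, 0.92 and 0.07 in CuO_TTM against control (adjusted p = 0.158, 0.208 and 0.949). Bcl6 was lower in every CuO lung than in any lung of the other groups, and neither its difference from control in CuO (-0.88, adjusted p = 0.606) nor that of CuO_TTM from CuO (0.95, adjusted p = 0.517) was called.

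Cytokines steer the choice of isotype, in mice interleukin 4 towards Ighg1 and Ighe, interferon gamma towards Ighg2c, and TGF-beta towards Igha and Ighg2b. Of 18 tested genes of these cytokines, their receptors and T cell help, 1 was called, Icos, a costimulatory receptor of helper T cells. It rose by 2.84 in CuO_TTM against control (limma adjusted p = 0.0446), from 1.45, 2.80 and 3.58 TPM in control to 47.2, 20.2 and 14.2 TPM. The count of 1 was 0 when any 1 of 7 lungs was left out, those other than CuO replicates 1 and 2, and 3 without CuO replicate 1. The interleukin 21 receptor gene Il21r differed by 1.84 (adjusted p = 0.0900) and Tgfb1, the TGF-beta gene, by 0.80 (adjusted p = 0.116). Tgfb1 measured 33.7, 49.9 and 43.1 TPM in control, 45.0, 52.5 and 60.4 TPM in CuO, and 77.8, 72.8 and 70.2 TPM in CuO_TTM.

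Il4, Ifng and Il21 are named after their values were seen. Il4 was listed at 0 in all CuO_TTM lungs and in 2 CuO lungs, and stood at 0.17 to 0.34 TPM in control. Ifng measured 1.67 to 20.04 TPM in control, 0.71 to 7.85 TPM in CuO and 6.96 to 21.6 TPM in CuO_TTM, with overlap between all groups. Il21 stood at 1.06, 0.62 and 0.34 TPM in CuO_TTM and at 0 to 0.17 TPM in all other lungs, below the filter.

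None of 10 tested antibody receptor and transporter genes was called by limma, and 3, 2 and 5 had an unadjusted p under 0.05 in CuO against control, CuO_TTM against CuO and CuO_TTM against control. The shares of all tested genes were 7.95%, 7.75% and 18%. The inhibitory IgG receptor gene Fcgr2b had the smallest p, with 17.7, 29.7 and 65.0 TPM in control, 59.3, 123 and 106 TPM in CuO, and 144, 122 and 111 TPM in CuO_TTM, a difference of 1.91 against control (adjusted p = 0.0690). Fcer1g, the signalling chain shared by IgG and IgE receptors, differed by 1.45 (adjusted p = 0.160). Pigr, which carries IgA into the airway and is named here for that role, measured 44.6, 3.52 and 2.34 TPM in CuO_TTM and 18.98 to 51.98 TPM in all other lungs. The lungs with the lowest Pigr had the highest Igha, and also the lowest summed club cell genes, 2418 and 4329 TPM against 74866 to 234322 TPM in the other lungs. Summed ciliated cell genes were lowest in the same lungs as well, at 127 and 151 TPM against 259 to 638 TPM. None of the 10 ciliated cell genes was called in any comparison. The part of these airway cell levels in Pigr and Igha was not tested.

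Of 11 tested homing and lymphoid tissue genes limma called none, with 2, 3 and 1 at an unadjusted p under 0.05 in the same order. The shares of all tested genes were 7.95%, 7.75% and 18%. Ccl21a, a chemokine of lymphatic vessels and lymphoid stroma, measured 126, 149 and 112 TPM in control, 775, 328 and 323 TPM in CuO, and 121, 254 and 225 TPM in CuO_TTM, a difference of 1.75 for CuO against control (adjusted p = 0.210). Clu and the B cell follicle receptor gene Cxcr5 differed by 1.49 and -1.08 in that comparison (adjusted p = 0.335 and 0.694). Glycam1, a defining gene of lymph node vessels, stood at no more than 0.31 TPM in any lung. Other genes of the list, named after their values were seen, peaked in CuO_TTM replicate 1. There Ccr7 measured 42.6 TPM and Cxcr5 14.7 TPM, against 4.02 to 10.2 TPM and 0.75 to 5.23 TPM in the other lungs. Ccl19, Ccr6 and Chst4 were also highest in that lung. Cxcl12, Cxcr4, Cxcl13, Ccl20, Ccl21a and Clu were highest in other lungs. The source of these transcripts was not tested. Among genes of early B cells and thymocytes, Rag1 stood at no more than 0.09 TPM and Ptcra at no more than 0.16 TPM, and 1 of 3 tested genes was called, Themis, which mature T cells also express (2.49 in CuO_TTM against CuO, limma adjusted p = 0.0258). The others, Cd34, a gene of progenitors and of vessels, and Vpreb1, a surrogate light chain gene, differed by 0.14 and -0.73 (adjusted p = 0.925 and 0.706).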

How the data were processed

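Per the labels' protocols, stranded libraries were made from poly(A)-selected lung RNA and sequenced from both ends. The authors deposited 1 table of TPM, printed to 2 decimals, and the submitters' processing notes name fastp, HISAT2, RSEM, DESeq2 and GRCm39 without versions or roles. TPM keep no depth, so no counting interval was computed. Each gene has 1 value, so secreted and membrane forms of a heavy chain are not separated.

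Symbols from GENCODE M21 matched 52029 of 57010 identifiers. log2(TPM + 1) of 15487 genes was fitted with limma 3.58.1 in R 4.3.3, with a mean per group over 9 libraries, a trend on abundance and Benjamini-Hochberg adjustment at 0.05. The procedure was tested on simulated data with independent noise for each gene and library. Such data lack the library-wide differences described above, so that test does not show how the calls behave under them. Members and lists were chosen with earlier results of these data known. Named genes were the members, the light chain constant genes, Jchain, up to 3 genes per described list by smallest p over the comparisons, Scgb1a1 for context, and the 2 genes nearest in shape to each member. Each replicate is a different mouse, per the series' design text, and no batch is labelled. Alternatives covered scaling, pseudocount, filter, moderation, a replicate block and libraries left out. Some results that the rule for named genes covers are not reported here.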

Additional observations from a re-analysis of the deposited data

How the results depend on the processing

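Deviations of same-numbered lungs from their group means had r of -0.371 to 0.286 over the 3 comparisons, across genes. In CuO_TTM against CuO, 1 of the 3 pairs exceeded 0.1, and no pair did in the other comparisons. So few lungs cannot show whether the labels' numbers pair the mice. With the replicate number as a block, the genes called were 3, 81 and 113 in CuO against control, CuO_TTM against CuO and CuO_TTM against control, in place of 0, 110 and 294, and the members called were 0, 4 and 5 as without it. With single libraries left out, the genes called ranged from 0 to 35, 1 to 148 and 3 to 1660, and the members called were 0 throughout, 0 to 4 and 2 to 5. The lowest counts came without CuO_TTM replicate 2 in CuO_TTM against CuO and without control replicate 2 in CuO_TTM against control.

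In CuO against control, median-ratio scaling called 7 genes and no filter 3. In CuO_TTM against CuO, a pseudocount of 0.1 called 41 genes, no filter 30 with 1 member, a mean of at least 5 TPM 67, the 2 groups alone 0 with 0 members, and leaving out CuO_TTM replicates 2 and 3 together 1 with 0 members. In CuO_TTM against control, totals without Scgb1a1 called 123 genes, a pseudocount of 0.1 183, no filter 56, the 2 groups alone 1378, and leaving out both lungs 1 with 0 members. The share of higher among called genes there was 94.2%, and 78.0% with quantile normalization and 81.7% with median-ratio scaling. Scaling moved the median of all genes to between -0.108 and 0.263 over the comparisons, and left that of the members at no less than 1.03, 2.28 and 3.57. The cause of these changes was not tested.

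Differences that turned sign were uncalled. They were Ighd in CuO_TTM against control (0.30, and -0.044 with quantile normalization, -0.24 to 0.61 with single libraries left out), and Iglc3 (-0.13, -0.58 to 0.41) and Jchain (0.44, -0.063 to 1.13) in CuO against control. The mean Igha share was 37.7%, 46.8% and 47.8% in control, CuO and CuO_TTM, and 62.8%, 55.7% and 57.8% of members other than Ighm and Ighd. With single lungs left out it ranged from 26.0% to 44.8%, 44.4% to 50.5% and 41.1% to 56.7%. Of 1461 alternative values, 1236 kept their direction and their side of the threshold or, for counts, stayed within 1.5 times the reported count and, for shares, within 1 SD. Counts of 0 that stayed at 0 and uncalled differences that stayed uncalled are included as kept. The tally therefore does not measure how firm the calls were.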
